A study of Mus musculus with 6 samples.

Results

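N-glycosylation begins on the membrane of the endoplasmic reticulum (ER), where sugars are stacked on the lipid dolichol into a precursor that the oligosaccharyltransferase moves in a single step onto asparagines of new proteins. Glucosidases and mannosidases of the ER then trim the transferred glycan while a glucosyltransferase marks glycoproteins that are not yet folded, and Golgi mannosidases cut it down further before branching and galactose capping. The 40 genes described here, of 32285 in the count tables, were chosen by name to cover this route. They are 12 enzymes that assemble the precursor, 3 subunits of dolichol-phosphate mannose synthase, 6 genes that supply sugar donors, 9 subunits of the oligosaccharyltransferase, 5 genes of ER trimming and folding control, and 5 Golgi genes (4 mannosidases and the galactosyltransferase B4galt1). The choice uses names and no measured value, although earlier results of these data were known when it was made.

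The study asked how blocking glycans changes the response of ovarian tumors to immune checkpoint blockade. Tumors of KPCA, an HR-proficient mouse ovarian cancer cell line, were grown in the ovary of female C57BL/6 mice 6 to 8 weeks old, and tumors were taken on day 30. There were 6 libraries of 3′ single-cell RNA-seq, each 1 mouse: control (solvent and control rat IgG), 2DG (2-deoxyglucose, a glucose analog that also resembles mannose and can be built into N-glycan precursors, 500 mg/kg every 2 days from day 9), 2FF (2-fluorofucose, an inhibitor of fucosylation, by gavage after implantation, with tumor cells kept in 300 µM of it for 3 days before injection), anti-PD-L1 antibody (5 mg/kg, 2 times a week for 3 weeks after day 9), and 2 combinations, 2DG plus anti-PD-L1 (called the 2DG combination below) and the same antibody with 2FF (the 2FF combination). The sample labels call the tissue lymph node and the series design speaks of young and aged mice, whereas the study's methods describe tumors. The labels also name 2FF as 2F-Peracetyl-Fucose, whereas the study names 2-fluoro-L-fucose. Only 42 cells in all passed a tumor-cell gate, and the other gated cells were almost all immune cells.

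The 6 libraries held 8598 to 10412 barcodes and 61859753 to 73885214 UMIs (unique molecular identifiers, counted transcripts). Cells with at least 250 genes and at most 5% mitochondrial UMIs were kept, which left 7703 to 9222 per library. A cell was gated when it had a UMI of at least 3 of 6 markers of a list and more than of any other class. All T-like cells share 1 list of 6 markers and were then divided into CD8, CD4, regulatory and other T-like cells. The 1632 other T-like cells are not among the classes counted or compared below. The dendritic-like class pools 3 lists of 6 markers. Between 14.1% and 17.9% of the cells stayed without a class. Barcodes shared by a pair of libraries came to at most 0.345% of the smaller library. All levels below are CPM, UMIs per 1000000 UMIs of a class in a library, and intervals cover counting error only. With 1 mouse per treatment, classes were compared across the libraries by a test, and treatments were not tested.

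Together the 40 genes took 0.21% to 0.26% of all UMIs of a library. Their summed level was highest in B-like cells, at 4401 to 5404 CPM with a median of 4693 (n = 6 libraries), and lowest among the classes in granulocyte-like cells, at 1024 to 1322 CPM with a median of 1151. Macrophage-like cells stood at 2585 to 2844, CD8 T-like cells at 2335 to 2582 and monocyte-like cells at 2277 to 2492 CPM. Neither the B-like nor the granulocyte-like range overlapped with that of monocyte-like, macrophage-like, dendritic-like or NK-like cells. Nor did either overlap with those of the CD8, Treg-like (regulatory T-like) and CD4 T cells. Man1a and Stt3b made up much of the B-like sum, with medians of 2145 and 672 CPM. For precursor assembly, sugar supply and ER trimming the B-like medians (133, 90.8 and 194 CPM) were below the macrophage-like ones (169, 132 and 207). For mannose synthase, the oligosaccharyltransferase and the Golgi genes they were above (185, 1294 and 2956 against 159, 925 and 1120). The sums do not hold for each gene. Rpn1, Rpn2, Ddost, Ost4, Ostc and Magt1 had a higher median in macrophage-like than in B-like cells. Stt3b was higher in B-like cells, and Stt3a and Dad1 had their highest medians in dendritic-like and Treg-like cells. Of the Golgi genes, Man1a and B4galt1 were higher in B-like and Man2a1 and Man2a2 in macrophage-like cells. The next counts cover 9 classes with at least 20 cells in 5 or more libraries, which leaves out plasma-like and plasmacytoid dendritic-like cells. Of the 40 genes, 35 had their lowest median level in granulocyte-like cells, and macrophage-like cells held the highest median for 13. The 6 granulocyte markers alone took 32808 to 84663 CPM of granulocyte-like cells, which lowers the CPM of every other gene there. How often any gene is lowest in that class was not counted. For 34 of the 40 the highest of these 9 classes overlapped with the next one. It did not for 6: Dpagt1, Rpn1 and Rpn2 in macrophage-like cells, Gfpt1 in dendritic-like cells, and Stt3b and Man1a in B-like cells. The share of all genes without such an overlap was not counted, so the 6 are a description only.

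**Figure D1:**
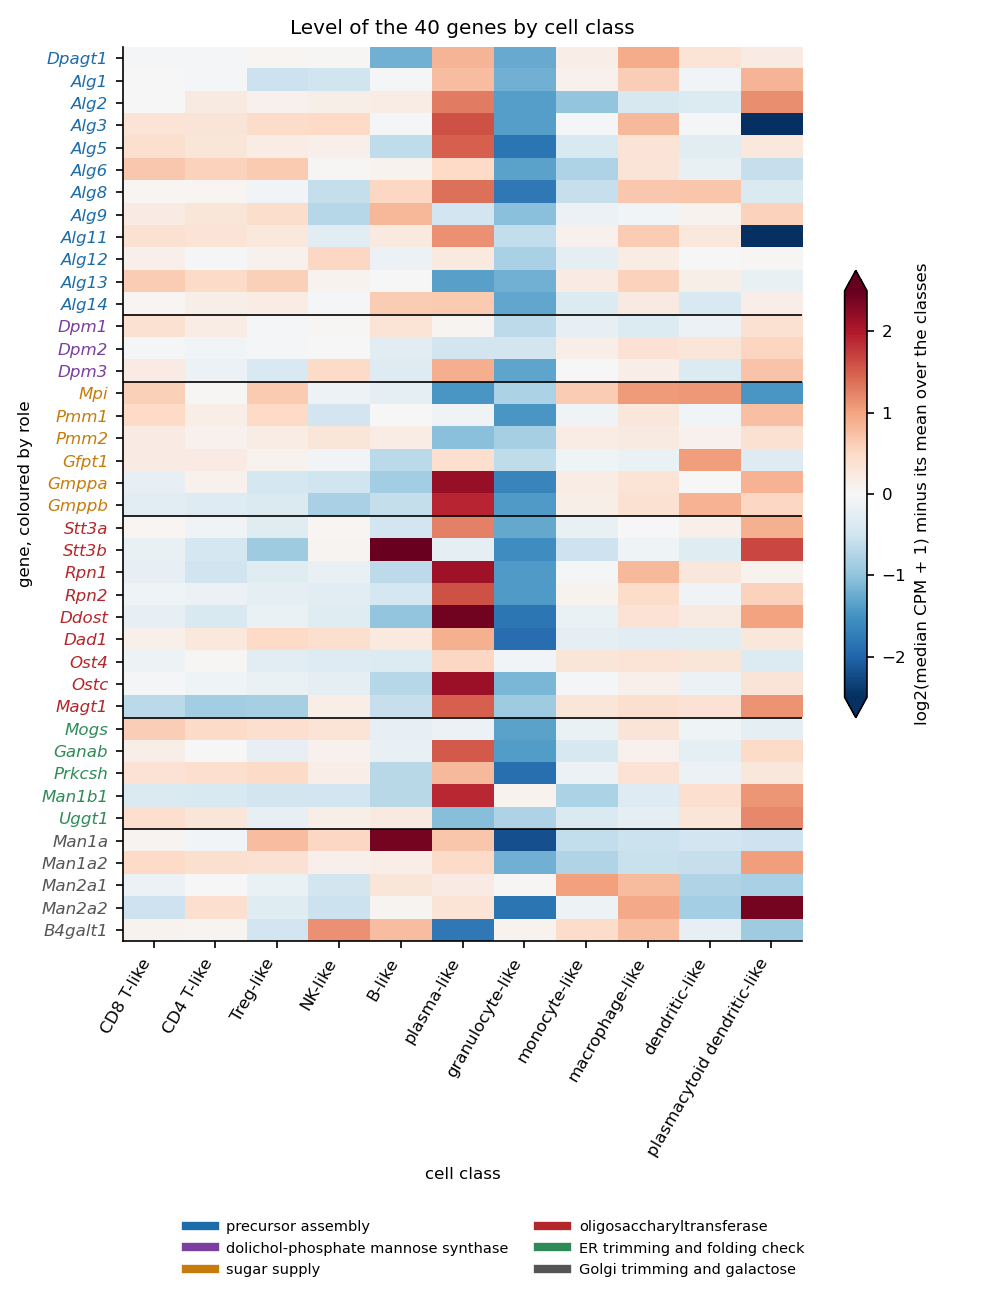
Colours give log2(median CPM + 1) of each gene in each cell class minus the gene's mean over the 11 classes, with genes in rows and coloured by role; medians are over libraries with at least 20 cells, which is 1 library for plasma-like and 4 for plasmacytoid dendritic-like cells. Granulocyte-like cells are blue for most genes, plasma-like cells are red for most oligosaccharyltransferase subunits, and Stt3b and Man1a are deepest red in B-like cells.

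Among the assembly enzymes, Dpagt1 (chr9:44326019-44333900, GRCm38), which places the first sugar on dolichol, was measured at 15.6 to 23.1 CPM in macrophage-like and 9.51 to 14.2 CPM in dendritic-like cells, ranges that did not overlap. Gfpt1 (chr6:87042846-87092197), the enzyme that commits fructose-6-phosphate to the hexosamine pathway and so to UDP-GlcNAc, stood at 103 to 168 CPM in dendritic-like cells. Its next highest class, CD4 T-like cells, reached from 53.3 to 103 CPM, just under the lowest dendritic-like library. Levels for each of the lists pooled as dendritic-like are not given. Rpn1 and Rpn2, the ribophorins of the oligosaccharyltransferase, had medians of 120 and 119 CPM in macrophage-like cells. Man1a (chr10:53904785-54076609), a Golgi mannosidase that trims mannoses, was measured in B-like cells at 1934 to 2676 CPM with a median of 2145. The next class for Man1a was the Treg-like cells with 495 to 899 CPM, so that every B-like library lay more than 2 times above it.

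The catalytic subunits of the oligosaccharyltransferase, Stt3a (chr9:36729344-36767679) and Stt3b (chr9:115242581-115310421), were distributed differently over the classes. STT3A sits at the translocon and acts while a protein is still being made, and STT3B acts on sites that were skipped. Stt3b was measured at 507 to 874 CPM in B-like cells with a median of 672, and at 290 to 562 CPM in plasmacytoid dendritic-like cells (n = 4), ranges that overlapped. No other whole class exceeded 136 CPM in a library of at least 20 cells. The B-like range of Stt3a, 26.2 to 55.5 CPM, overlapped with those of CD4 T-like (40.7 to 60.8) and Treg-like cells (29.1 to 57.1).

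**Figure D2:**
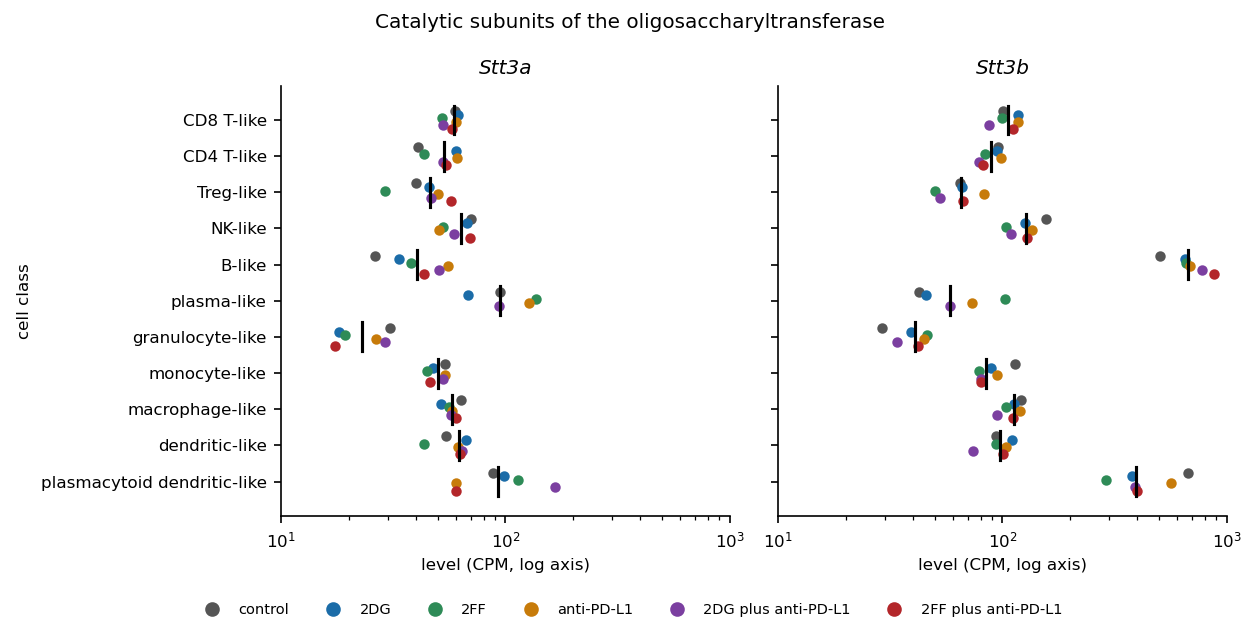
Each point is the level of Stt3a (left) or Stt3b (right) in CPM, on a log axis, in 1 library with at least 5 cells of the class, coloured by treatment, and the black bar is the median. Stt3b is high in B-like and plasmacytoid dendritic-like cells and low in plasma-like cells, whereas Stt3a is highest in plasma-like and plasmacytoid dendritic-like cells.

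Plasma cells, the antibody-secreting descendants of B cells, load the ER with glycoprotein. Only the 2FF library reached the minimum of 20 plasma-like cells (33 cells). After the numbers of cells had been seen, a fit was added with the 5 libraries that held at least 5 such cells (5 to 33), and its values are given below unless said otherwise. In edgeR's quasi-likelihood test across 13295 genes, with the library as a block and Benjamini-Hochberg adjustment, 23 of the 40 genes were higher and 3 were lower in plasma-like than in B-like cells at an adjusted p under 0.05 and at least 2-fold. Of all genes tested, 25.3% were called in either direction. That share also stands beside the counts by role and list in the next paragraphs. The median log2 difference of the 40 genes was 1.38, beside -0.29 for all genes. The fit at 20 cells called 20 higher and 3 lower, beside 17.2% of 15299 genes, but its plasma-like side is a lone library that is assumed to vary like the other groups. Immunoglobulin genes took 34.8% to 45% of the UMIs of plasma-like cells and 0.664% to 2.27% in B-like cells. This lowers the CPM of every other gene in plasma-like cells, and the fits scale for it by TMM. Over all 6 libraries plasma-like cells carried a median of 17729 to 23331.5 UMIs per cell, against 4821 to 6163 in B-like cells. The part of depth was not tested.

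Of the 9 oligosaccharyltransferase subunits, 7 were called higher in plasma-like cells and 1, Stt3b, was called lower. Ddost (chr4:138304730-138312628), a subunit that holds the complex together, stood at 114 to 348 CPM in the 5 libraries of plasma-like cells, against 22.8 to 56.2 CPM in B-like cells. The groups did not overlap, and Ddost rose by 3.39 ± 0.19 on the log2 scale (SE, adjusted p = 7.95e-25, edgeR). Rpn1 rose by 2.88 ± 0.15, Ostc by 2.79 ± 0.17 and Rpn2 by 2.29 ± 0.13 in the same test. Dad1 passed at 0.89 ± 0.14 without reaching 2-fold. The catalytic paralogs split. Stt3a stood at 68.4 to 138 CPM in plasma-like cells, above every B-like library, and rose by 1.98 ± 0.20 (adjusted p = 5.09e-13, edgeR). Stt3b stood at 42.2 to 103 CPM, below every B-like library, and fell by 2.64 ± 0.17 (adjusted p = 8.76e-22, edgeR). Each of the 5 libraries showed both directions.

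Subunits that partner with either catalytic chain lie among the members and among 3 further subunits of the complex. OSTC and KRTCAP2 belong to the STT3A complex, and MAGT1 or TUSC3 to the STT3B complex. Krtcap2 was higher by 2.94 ± 0.14 and Tmem258 by 2.15 ± 0.15 on the log2 scale, and Tusc3 fell by 2.26 ± 0.48 (all called, edgeR). Magt1 (chrX:105968084-106011906) moved the other way from Stt3b: it was measured at 74.1 to 214 CPM in plasma-like and 44.3 to 78.5 CPM in B-like cells, and rose by 2.00 ± 0.16 (adjusted p = 2.96e-17, edgeR). Its ranges overlapped, but within each of the 5 libraries plasma-like cells were higher.

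Of the 6 sugar supply genes 3 were called higher. Gmppa and Gmppb, a regulatory and a catalytic subunit of GDP-mannose pyrophosphorylase, rose by 3.16 ± 0.36 and 2.88 ± 0.27, and Gfpt1 rose by 1.38 ± 0.26 (edgeR, adjusted p = 1.76e-11, 2.09e-14 and 1.27e-05). Gmppa stood at 5.7 to 73.9 CPM in plasma-like cells and at 4.76 to 10.2 CPM in B-like cells, so the groups overlapped through the 2DG library, whose 8 plasma-like cells held 1 UMI of Gmppa, below the 17.1 CPM that 3 UMIs are worth. Gmppb shares exon sequence on the same strand with the gene model Gm20529, and reads there could not be assigned to Gmppb. Mpi, which isomerizes fructose-6-phosphate and mannose-6-phosphate, had no UMI in the plasma-like cells of the 5 libraries and at most 4.76 CPM in B-like cells, too few for a fold. Of the phosphomannomutases, Pmm1 did not pass (adjusted p = 0.818, edgeR), and Pmm2 passed on the low side at -0.96 ± 0.39 without reaching 2-fold. Of 5 further sugar supply genes, 4 were tested and 3 were called higher: Pgm3 by 2.28, Gnpnat1 by 1.34 and Uap1 by 1.30.

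Of the 12 assembly enzymes 7 were called higher and none lower. Dpagt1 was higher by 2.81 ± 0.42 and Alg5, which makes dolichol-phosphate glucose, by 2.52 ± 0.21, each in 5 of 5 libraries. Alg3 (2.10 ± 0.40) and Alg1 (1.38 ± 0.41) were higher in 4 of 5, and Alg2 (1.52 ± 0.40), Alg11 (1.44 ± 0.52) and Alg8 (1.10 ± 0.42) in 3 of 5. Alg1 and Alg11 were not called with the lone library. Alg9 passed on the low side at -0.94 ± 0.35 and was lower in 5 of 5. Summed over the 12 enzymes, plasma-like cells stood at 137 to 224 CPM and B-like cells at 112 to 156 CPM in all 6 libraries. These ranges overlapped. The plasma-like cells of the control held only 94719 UMIs of all genes, so single enzymes rest on few UMIs there. Of the 3 mannose synthase subunits only the small stabilizing subunit Dpm3 was called, higher by 1.54 ± 0.17, and the catalytic subunit Dpm1 gave -0.01 ± 0.16.

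In the ER 4 of 5 genes were called higher. Man1b1, a mannosidase that marks misfolded glycoproteins for disposal, was higher by 2.81 ± 0.25 and Ganab, the catalytic subunit of glucosidase II, by 1.87 ± 0.17, each in 5 of 5 libraries by CPM. Mogs, glucosidase I, was higher by 1.47 ± 0.36 and by CPM in 3 of 5. Prkcsh, the other subunit of glucosidase II, was called at 1.45 ± 0.23, but its CPM was higher in only 2 of 5 libraries. Uggt1, the folding sensor, passed on the low side at -0.79 ± 0.19 without reaching 2-fold. In the Golgi, Man1a fell by 1.13 ± 0.17 and B4galt1, which adds galactose, fell by 1.73 ± 0.24. Man2a2 was called higher by 1.18 ± 0.28 in 4 of 5 libraries, a call that the fit with the lone library did not make.

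Genes that work beside the members in the ER were counted from lists. Beside these counts stands the same 25.3% of all genes called in either direction. Of 12 lectin chaperones, quality-control and cargo-receptor genes, 9 were called higher and none lower, among them Edem2 (4.06) and Edem1 (3.83 on the log2 scale). Of 7 genes of the unfolded protein response, 6 were higher, among them Creld2 (4.89), Xbp1 (4.79), Sdf2l1 (3.80) and Hspa5 (2.48), and Ddit3 did not pass (adjusted p = 0.589, log2 difference 0.38, edgeR). Of 8 further genes of dolichol and precursor synthesis only Dhdds, which builds the dolichol chain, was called (1.44).

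**Figure D3:**
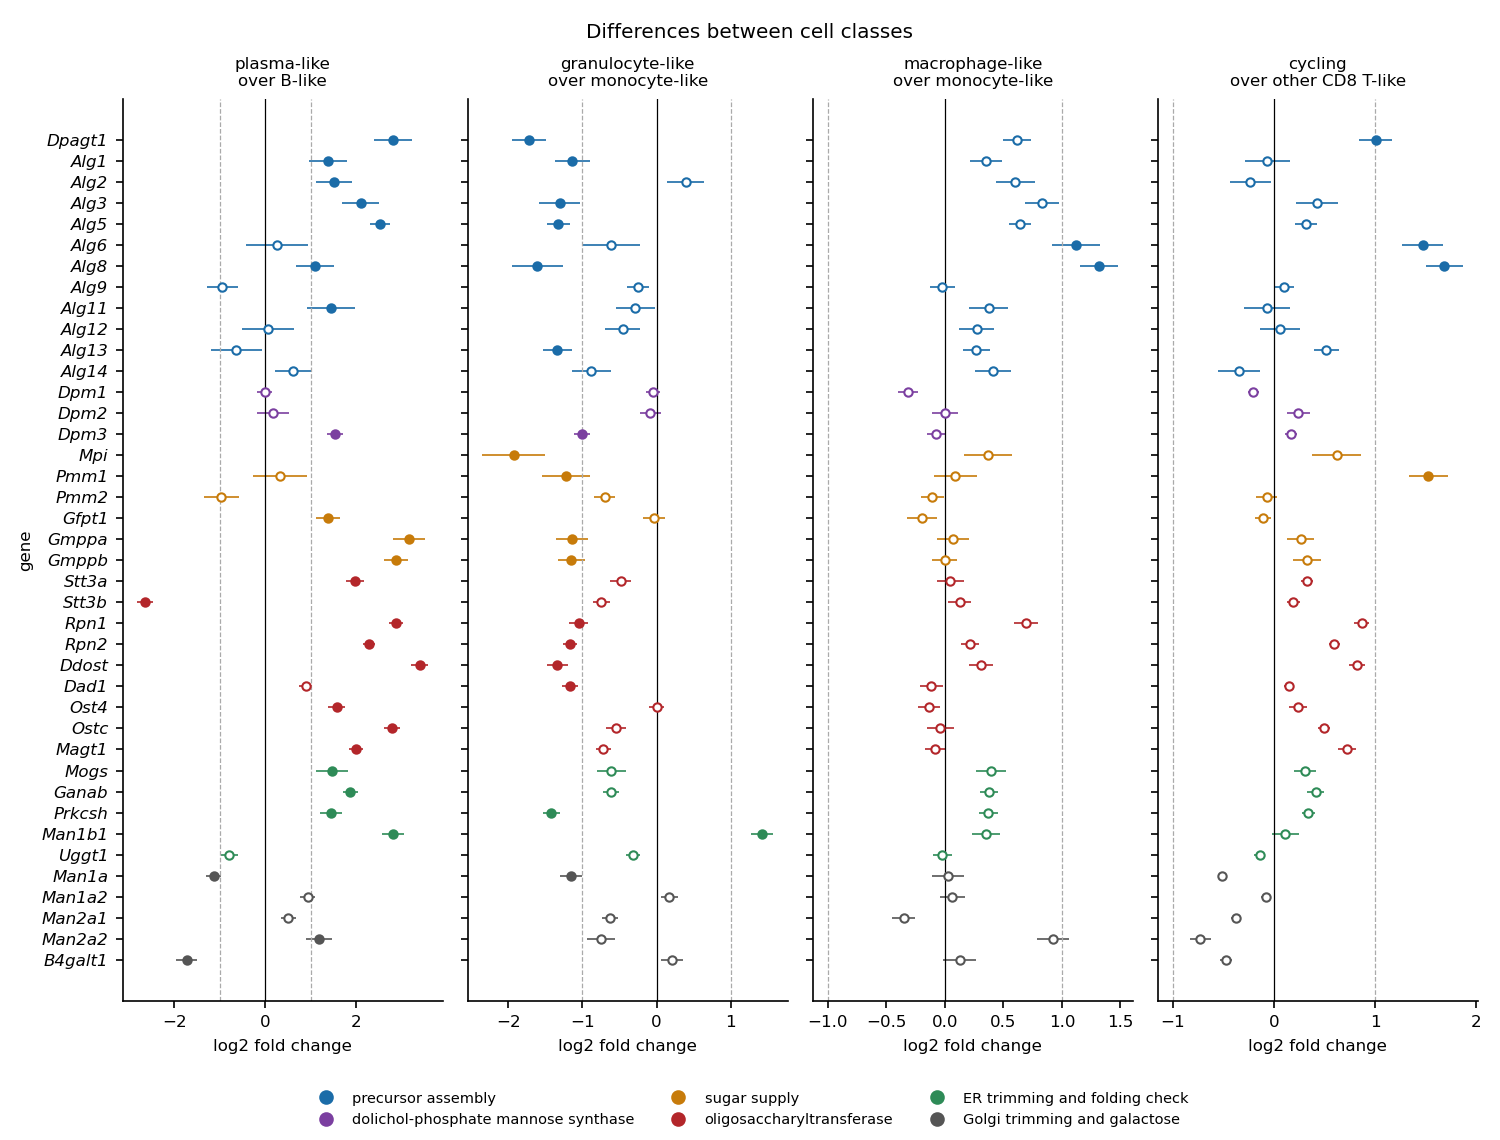
Points are log2 fold changes with SE bars for the 40 genes in 4 class comparisons, filled where the gene was called (adjusted p under 0.05 and at least 2-fold, edgeR) and coloured by role; dashed lines mark 2-fold, and the plasma-like panel is the fit with at least 5 cells, without Mpi, whose level was too low. Stt3b lies far left of the other red points in the plasma-like panel, most points of the granulocyte-like panel lie below 0, and the red and grey points part to either side of 0 in cycling CD8 T-like cells.

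The ER stress response element (ERSE), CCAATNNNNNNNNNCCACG on either strand, is bound by factors of the unfolded protein response. It was looked for in RefSeq promoters of GRCm38.p6, from 250 bases before to 50 after the start of a gene, which were at hand for 33 of the 40. It was found in 1 of the 33 (3.03%), beside 0.137% of all genes. That gene is Alg12, a mannosyltransferase of the precursor, and its promoter is printed because it is the only match (chr15:88819269-88819568, minus strand, motif letters in capitals).
Alg12: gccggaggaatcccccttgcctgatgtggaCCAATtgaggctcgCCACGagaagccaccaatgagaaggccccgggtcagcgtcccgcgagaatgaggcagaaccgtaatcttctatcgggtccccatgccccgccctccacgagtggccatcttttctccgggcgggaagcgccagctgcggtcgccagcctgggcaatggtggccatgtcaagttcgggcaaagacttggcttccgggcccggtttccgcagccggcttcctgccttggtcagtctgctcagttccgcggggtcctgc
In the plasma-like cells, where most genes of the unfolded protein response were higher, Alg12 did not pass the test (0.06 ± 0.57, adjusted p = 0.993, edgeR) and was low, at 8.19 CPM in the 2FF library and at 0 in 3 of the other 4. The related element ERSE-II, the core TGACGTGG bound by XBP1 and ATF6, and TGATGCAA, an amino acid response element, matched none of the 33 promoters on either strand. They were held by 0.0444%, 0.714% and 1.03% of all genes.

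Granulocyte-like cells, gated on neutrophil genes such as S100a8 and Csf3r, had lower levels of many members. Compared with monocyte-like cells in all 6 libraries, 17 of the 40 genes were lower and 1 was higher, beside 35.3% of all genes called in either direction (3060 higher and 2343 lower of 15299). The median log2 difference of the members was -0.73, beside 0.05 for all genes. Lower were 6 of 12 assembly enzymes, 4 of 6 sugar supply genes, 4 of 9 oligosaccharyltransferase subunits and 1 gene in each of the other roles, each in 6 of 6 libraries. Mpi stood at 0 to 2.42 CPM in granulocyte-like and 3.07 to 3.99 CPM in monocyte-like cells and fell by 1.92 ± 0.42. Dpagt1 was 0 to 4.53 against 10.0 to 12.5 CPM, no overlap, and fell by 1.72 ± 0.23, and Alg8, a glucosyltransferase of the precursor, fell by 1.61 ± 0.35. Of the better counted genes, Ddost stood at 12.9 to 18.2 against 50.8 to 67.5 CPM and fell by 1.34 ± 0.14 (adjusted p = 1.03e-12, edgeR). Prkcsh fell by 1.42 ± 0.12 and Dad1 by 1.17 ± 0.11.

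Man1b1 (chr2:25332338-25352212) went the other way. It was measured at 16.9 to 31.0 CPM in granulocyte-like cells and 11.2 to 12.5 CPM in monocyte-like cells, with no overlap, and was higher by 1.42 ± 0.15 (adjusted p = 1.38e-12, edgeR) and in 6 of 6 libraries. Granulocyte-like cells carried a median of 2554 to 3825 UMIs per cell, against 6648 to 10336 in monocyte-like cells, and the control library held 3078 of the 4696 cells. Without the control library 20 members were called, and the share of all genes in that repeat is not given here. The part of depth was not tested. Among neighbours of the pathway, 3 of 11 chaperone and lectin genes were lower, Lman1 (-1.83), Pdia3 (-1.20) and Calr (-1.13). Of all genes in the fit of 6 libraries, 35.3% were called in either direction. The unfolded protein response was mixed, with Ddit3 (2.73) and Dnajb9 (1.64) higher and Sdf2l1 (-2.37) lower.

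Macrophage-like and monocyte-like cells differed in few members by 2-fold. Only 2 of the 40 genes reached 2-fold, beside 13.1% of all genes, and both are glucosyltransferases that add the glucoses of the precursor one after the other. Alg8 (chr7:97371606-97392185) stood at 8.17 to 14.8 CPM in macrophage-like and 3.14 to 4.96 CPM in monocyte-like cells and was higher by 1.32 ± 0.16 (adjusted p = 1.22e-09, edgeR). Alg6 stood at 4.05 to 6.53 against 1.55 to 3.49 CPM and was higher by 1.12 ± 0.20 (adjusted p = 9.09e-06, edgeR). For both genes the groups did not overlap. At the adjusted p alone, 8 of the 12 assembly enzymes were higher and none was lower, with a median log2 difference of 0.51, while 44.4% of all genes passed in either direction. All 8 were higher in 6 of 6 libraries. The trimming enzymes Mogs, Ganab, Prkcsh and Man1b1 also passed, by 0.35 to 0.40, and Man2a2 by 0.93 ± 0.14. Dpm1 (-0.31) and Man2a1 (-0.35) passed on the low side. The 6 sugar supply genes gave no pass.

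Within CD8 T-like cells, the members called between dividing and other cells were precursor assembly and sugar supply genes. No oligosaccharyltransferase or Golgi gene was called. CD8 T-like cells with a UMI of at least 2 of 5 proliferation genes were compared with those that had none, in the 5 libraries with at least 20 cycling cells (the control had 12). Of the 40 genes, 4 were called higher and none lower, beside 7.71% of 10876 genes. Alg8 stood at 10.4 to 15.5 CPM in cycling and 2.39 to 5.14 CPM in other cells and was higher by 1.69 ± 0.19, Pmm1 by 1.53 ± 0.19, Alg6 by 1.47 ± 0.20 and Dpagt1 by 1.01 ± 0.16, close to the 2-fold limit (edgeR, adjusted p = 5.16e-06, 1.98e-05, 3.84e-05 and 1.55e-04). None of the 4 overlapped between the groups, and each was higher in 5 of 5 libraries. At the adjusted p alone, all 9 oligosaccharyltransferase subunits were higher, by 0.15 (Dad1) to 0.87 (Rpn1), and 4 of 5 Golgi genes were lower, by -0.37 (Man2a1) to -0.72 (Man2a2); 50.7% of all genes passed this way. Man1a, for example, stood at 289 to 362 CPM in cycling and 412 to 504 CPM in other cells. Cycling cells were deeper, with 10151 to 12170.5 UMIs at the median over the 5 libraries against 5381 to 7172, and the part of depth was not tested. Of 7 genes of the unfolded protein response, Creld2 (1.17) and Sdf2l1 (1.13) were called higher.

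Plasmacytoid dendritic cells are the interferon-producing branch of the dendritic lineage. In the 4 libraries with at least 20 such cells, 4 members were higher and 2 were lower, beside 23.3% of all genes. Man2a2 (chr7:80349097-80371375), a Golgi mannosidase that opens the way to complex glycans, was measured at 150 to 287 CPM in plasmacytoid and 14.2 to 25 CPM in dendritic-like cells and was higher by 3.17 ± 0.22 (adjusted p = 1.20e-18, edgeR). Stt3b was higher by 1.86 ± 0.13, Man1a2 by 1.66 ± 0.14 and Alg2 by 1.45 ± 0.39. Gfpt1 fell by 1.57 ± 0.25 and stood at 21.4 to 83.1 against 103 to 168 CPM. Its neighbour in the hexosamine route, Uap1, fell by 2.85. Mpi was also called lower (-2.57 ± 1.01), at 0 CPM in 3 of the 4 libraries, and lost the call with DESeq2 and in 5 other alternatives. Man1c1, a further Golgi mannosidase, was higher by 2.63.

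Between the T and NK classes 0 to 2 members were called. CD8 T-like cells had 1 member lower than CD4 T-like cells, Man2a2, at 20.3 to 30.3 against 38.6 to 71.1 CPM (-1.07 ± 0.16, adjusted p = 3.02e-07, edgeR), beside 6.77% of all genes. Its groups did not overlap, and the difference fell under 2-fold when either combination library was left out. Treg-like over CD4 T-like cells gave no call among the 40, beside 8.02% of all genes, and DESeq2 gave no call either (edgeR for the other counts). At the adjusted p alone 1 member was higher and 4 were lower. The 8.02% holds for the adjusted p and 2-fold together. The share of all genes at the adjusted p alone is not given for this pair of classes. Both classes come from the same T-like marker list, and how many cells the split misplaced was not tested. NK-like cells had B4galt1 higher than CD8 T-like cells (295 to 372 against 128 to 188 CPM, 1.19 ± 0.15) and Pmm1 lower (-1.23 ± 0.32), 2 of 40 beside 16.8% of all genes. CD8 T-like cells were lower than macrophage-like cells in 5 members and higher in none, beside 42.1% of all genes: Man2a2 fell by 1.77, Dpagt1 by 1.30, Magt1 by 1.27, Man2a1 by 1.22 and Rpn1 by 1.21, each in 6 of 6 libraries.

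Tumor-like cells were too rare for the 20-cell minimum, and no library reached it. In the added fit with at least 5 cells (4 libraries, 6 to 16 cells each), 7 members were lower than in macrophage-like cells and none was higher, beside 37.4% of 13295 genes. The Golgi mannosidases Man2a1 (-2.97 ± 0.20), Man2a2 (-2.21 ± 0.36) and Man1a (-1.73 ± 0.22) and B4galt1 (-1.75 ± 0.22) were 4 of the 7. Man2a1 stood at 20.9 to 109 CPM in the tumor-like cells against 348 to 520 CPM in macrophage-like cells. The others were Alg12, Gmppb and Pmm2.

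Between treatments, each comparison set 1 library against 1 other on the scale of log2 of (CPM + 5), for genes with at least 50 UMIs in both libraries together, and at least 1.5-fold served as the rule of size. Control and anti-PD-L1 libraries are shared by several comparisons, which are therefore not independent. The medians below are over the members that reached the UMI minimum, 39 or 40 of 40. Where TMM-scaled CPM is named, only the members have a median on that scale. The medians of all genes are on unscaled CPM throughout.

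In CD8 T-like cells the medians over control were 0.17 for 2DG, 0.12 for 2FF and 0.21 for anti-PD-L1, beside 0.01, 0.04 and 0.04 for all genes. The control library held 118 CD8 T-like cells, against 1145 to 2034 in the other libraries. Past 1.5-fold were 2 of 39 members for 2DG, 8 of 40 for 2FF and 8 of 39 for anti-PD-L1, beside 12.1%, 15.3% and 15.0% of all genes. Comparisons without the control gave medians of -0.14 (the 2DG combination against the antibody alone), -0.08 (the 2FF combination against the antibody alone), -0.07 (the 2DG combination against 2DG) and -0.02 (the 2FF combination against 2FF). In the same order the medians of all genes were -0.05, -0.03, -0.02 and -0.02. In these comparisons 1, 1, 1 and 0 members passed 1.5-fold, beside 4.24%, 2.54%, 4.68% and 1.39% of all genes. With TMM-scaled CPM the member median of the 2FF combination against 2FF was 0.01. The CD8 T-like scaling factors were 1.17 in the control and 1.04, 1.03 and 1.05 with 2DG, 2FF and anti-PD-L1. Scaling therefore raises the ratios over control. The highest of the 21 scaled medians of CD8 T-like, macrophage-like and monocyte-like cells was 0.353.

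Gmppa carried the highest CD8 ratios over control: 1.24 with 2DG, 1.18 with 2FF and 1.47 with anti-PD-L1 on the log2 scale. It had 2 UMIs (2.17 CPM) in the control and 9.2 to 14.8 CPM in the other 5 libraries. The counting interval for anti-PD-L1 over control, without the added 5 CPM, ran from 0.90 to 5.83. Ostc had 50 UMIs in the control and 1351 with 2FF, and its ratio was 0.75 (0.40 to 1.24). Uggt1 gave 0.73 for anti-PD-L1 over control (0.43 to 1.10). Alg14 passed on the low side for 2FF (-0.60) and anti-PD-L1 (-0.71) over control. All of these share the control library.

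In macrophage-like cells, counted from 1007 to 1648 cells per library, the medians over control were 0.00 for 2DG, 0.01 for 2FF and 0.06 for anti-PD-L1, beside -0.02, -0.05 and 0.00 for all genes. The other 4 medians, in the order used for CD8 T-like cells, were -0.13, -0.10, -0.00 and 0.04, beside -0.08, -0.08, -0.06 and -0.02 for all genes. With TMM-scaled CPM the medians of the 2FF combination against the antibody alone and of the 2DG combination against 2DG were 0.03 and 0.06. Past 1.5-fold were 2, 0 and 2 members of 40 over control, beside 8.59%, 12.5% and 8.95% of all genes. Over anti-PD-L1 they were 2 with 2DG and 1 with 2FF, beside 5.75% and 3.53%. Adding anti-PD-L1 gave 0 of 40 over 2DG and 1 over 2FF, beside 4.42% and 2.07%. Man2a2 was among them: it stood at 48.7 CPM in the control, 77.9 with 2DG, 62.6 with 2FF, 100.1 with anti-PD-L1, 62.6 in the 2DG combination and 84.9 in the 2FF combination. It was thus higher than control in all 5 treated libraries, with a ratio of 0.97 for anti-PD-L1 (0.89 to 1.19).

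In monocyte-like cells the medians over control were 0.06 for 2DG, 0.01 for 2FF and 0.06 for anti-PD-L1, below those of all genes (0.16, 0.12 and 0.13). The remaining medians were -0.07, -0.14, -0.08 and -0.06 in the same order, beside -0.06, -0.09, -0.07 and -0.06 for all genes. With TMM-scaled CPM the medians over control turned to -0.16, -0.16 and -0.15, and that of the 2FF combination against 2FF to 0.06. The monocyte-like scaling factors were 0.702 in the control and 0.864, 0.824 and 0.852 with 2DG, 2FF and anti-PD-L1. They divide the CPM of every gene, so the scaled medians cannot be set beside the unscaled ones of all genes. Past 1.5-fold were 2, 1 and 3 of 40 over control (19.1%, 17.8% and 17.3% of all genes), 2 and 1 over anti-PD-L1 (4.18% and 3.75%), and 0 and 0 where anti-PD-L1 was added to 2DG or 2FF (4.84% and 2.87%). Man1a stood at 170 CPM in control monocyte-like cells and at 280 with 2DG and 307 with anti-PD-L1, ratios of 0.70 (0.65 to 0.78) and 0.83 (0.79 to 0.91). Both ratios are on unscaled CPM, and their intervals leave the scaling out. Scaling would lower both, since the control factor is below those of 2DG and anti-PD-L1. Whether they stay past 1.5-fold on that scale was not tested. B4galt1 stood at 277 CPM in the control and at 161 with 2FF (-0.76), and at 265 with anti-PD-L1 and 150.1 in the 2DG combination (-0.80).

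**Figure D4:**
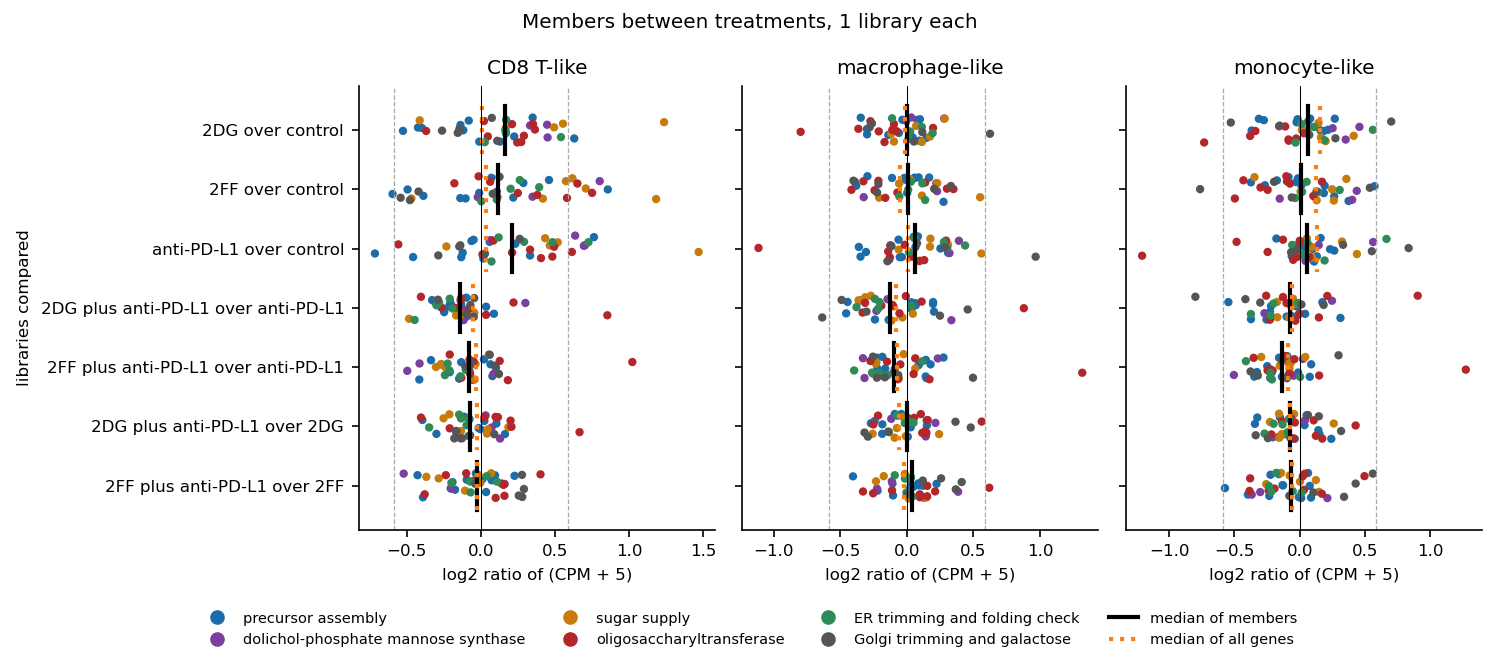
Points are the log2 ratios of (CPM + 5) of the members with at least 50 UMIs in 7 comparisons of 2 libraries, for 3 cell classes, coloured by role; black bars are the medians of the members, dotted orange bars those of all genes and dashed lines 1.5-fold. The member medians lie between -0.14 and 0.21, and the red point far from the others in macrophage-like and monocyte-like cells is Ost4.

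Ost4 had the same pair of libraries lowest in 9 classes. OST4 is the smallest subunit of the oligosaccharyltransferase, and its gene (chr5:30905885-30907788) is short. In macrophage-like cells it stood at 90.3 CPM in the control, 49.7 with 2DG, 66.3 with 2FF, 38.9 with anti-PD-L1, 75.8 in the 2DG combination and 105 in the 2FF combination. The 2DG and anti-PD-L1 libraries were the lowest pair in all 9 classes that held at least 18 cells in every library, and anti-PD-L1 was the lowest in 8 of the 9. Within a class the highest library was 2.05 to 3.25 times the lowest. Ostc had the same lowest pair in 3 of 9 classes, and no other member in more than 2. How many of all genes share a lowest pair over the 9 classes was not counted, so Ost4 is a description only. The 9 classes come from the same libraries and are not independent. The log2 ratio of the 2FF combination to the antibody alone was 1.02 in CD8 T-like, 1.32 in macrophage-like and 1.27 in monocyte-like cells. Each treatment is 1 library of 1 mouse, so treatment, mouse and library cannot be told apart.

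**Figure D5:**
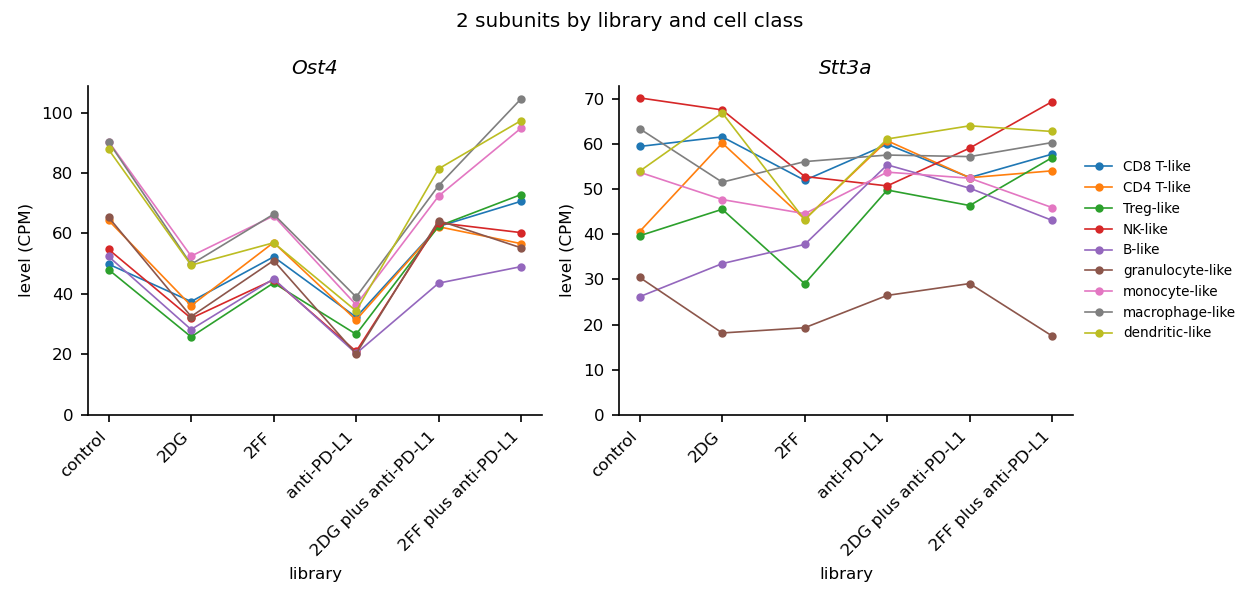
Levels in CPM of Ost4 (left) and Stt3a (right) in the 6 libraries, with a line for each of 9 cell classes; the lines join the libraries of a class and imply no order. For Ost4 the lines run side by side, with the 2DG and anti-PD-L1 libraries lowest in each of the 9, and for Stt3a they cross.

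Pairs of libraries that share none ask whether a treatment moved a member the same way more than once. When anti-PD-L1 was added to solvent, to 2DG and to 2FF, no member passed a log2 ratio of 0.32 the same way in all 3 pairs in CD8 T-like, macrophage-like or monocyte-like cells, beside 0.445%, 0.634% and 1.07% of all genes. In B-like cells 3 of 20 members did, all upward: Dpm3 (0.60, 0.41 and 0.43), B4galt1 (0.39, 0.47 and 0.37) and Man2a2 (0.94, 0.54 and 0.67 on the log2 scale), beside 0.861% of genes. The control library had 71 B-like cells.

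For 2DG, given alone or with anti-PD-L1, no member moved the same way in both pairs in CD8 T-like cells, beside 3.56% of all genes. In monocyte-like cells B4galt1 was lower in both (-0.53 and -0.80, 1 of 40 beside 5.77%), and in macrophage-like cells Alg8 was lower in both (-0.35 and -0.46, 1 of 40 beside 5.95%). For 2FF there was none in CD8 T-like and monocyte-like cells (3.27% and 4.25% of all genes), and Dpm3 was lower in both pairs of macrophage-like cells (-0.32 and -0.33, 1 of 40 beside 5.94%). Over 8 classes and the 3 kinds of pair, 20 of 709 cases of a member in a class passed (2.82%), beside 4.87% of the cases of all genes. B4galt1 was among them in both directions: with 2DG it was lower in monocyte-like and Treg-like cells and higher in B-like cells.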

How the data were processed

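Per the labels and file headers, the authors deposited UMI counts per gene and cell, raw and not normalized, for each of the 6 libraries, made with the 10x 3′ v3.1 kit and Cell Ranger on the mm10 reference (version 7.0.0 in the headers and 3.1.0 in the submitters' processing notes). From these counts, cells were filtered, gated by markers and summed per class and library. Doublets were not called; cells with 3 or more markers of a second class were left out in an alternative. The members and gene lists, other pathway genes included, were chosen with earlier results of these data known. Class sums of at least 20 cells were tested with edgeR 4.0.16 (quasi-likelihood, TMM, library as block, default low-count filter, Benjamini-Hochberg over all genes), in R 4.3.3. All 40 members passed the filter. For plasma-like and tumor-like cells a minimum of 5 cells was added. Since each library is 1 mouse and a block in the fit, these p-values measure how class differences vary between mice given different treatments. That spread is estimated over all classes of a fit. On simulated counts the fit was tested for CD8 T-like over CD4 T-like cells only, with the same spread for all genes. That simulation does not cover the fits with few plasma-like or tumor-like cells. Between treatments, log2 of (CPM + 5) was compared for genes with at least 50 UMIs, with exact binomial 95% intervals of the count ratio and no p-values. Named genes are the called members with the 3 highest and 3 lowest differences of a class comparison, those past 1.5-fold with the 3 highest and 3 lowest ratios of a treatment comparison, and genes of the lists; others named were chosen after their values were seen. Depth per class ran from 923574 UMIs in control CD8 T-like cells upward for the 3 classes compared between treatments. Ddit3 names 2 rows, of which the one with no UMI was left out. Coordinates are GENCODE M21, GRCm38.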

Additional observations from a re-analysis of the deposited data

How the results depend on the processing

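The counts of called members stayed within 1.5 times of those reported in 103 repeats and moved further in 3, under other settings (RLE size factors, DESeq2, no low-count filter, at least 4 of 6 markers, cells with a second class left out, no block for the library, 5 cells, and each library left out). The exceptions were all CD8 T-like over CD4 T-like cells, where Man2a2 is the only call: 0 members without the low-count filter, and 0 to 1 when each library was left out (0 without either combination library). For plasma-like over B-like cells the repeats varied the 20-cell fit with its lone plasma-like library. The 5-cell fit, whose values are given above, entered only as a further setting and was not itself repeated. Over the repeats no called member changed direction. The call held in 677 and was lost in 26, by name Man2a2 (CD8 over CD4), Dpagt1 (cycling), Dpm3 and Rpn1 (granulocyte-like), Alg6 (macrophage-like), Alg8, Dad1 and Ost4 (plasma-like) and Mpi (plasmacytoid). Plasma-like over B-like cells gave 22 members without the replicate block, and granulocyte-like over monocyte-like cells 18; the block moved no count by more than 1.5 times. Without the 2FF library the plasma-like comparison could not be fitted at 20 cells, nor could the plasma-like and plasmacytoid comparisons with second-class cells left out, and tumor-like cells have only the added fit. Of the 189 repeats of the 21 treatment medians in CD8 T-like, macrophage-like and monocyte-like cells, 18 had the other sign, 7 of them with TMM-scaled CPM. With that scaling anti-PD-L1 over control in monocyte-like cells gave -0.15, and the 2FF combination against 2FF gave 0.055. The scaling divides CPM by a factor for each class and library. For monocyte-like cells it was 0.702 in the control, 0.852 with anti-PD-L1, 0.824 with 2FF and 0.755 in the 2FF combination. Why the factors differ was not tested. Depth limits the CD8 T-like comparisons with the control, at 118 cells.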
